A study of Rattus norvegicus with 2 samples.

Results

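The genes described here encode the proteins of the mitochondrial ribosome. They were taken as every non-control probe, present on both arrays, whose target is a RefSeq mRNA of a rat gene with a symbol that starts with Mrpl or Mrps and a digit. The rule gave 63 genes of the 13888 that could be named through an accession, each with 1 probe and 1 usable spot per array. The family was proposed with results of these arrays in view, so its level and spread are given as a description.

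The cells were labelled hippocampal neural stem cells of Sprague-Dawley rats, taken at postnatal day 3, grown without serum in medium with bFGF and used at the third passage. One group received 2.4% sevoflurane, an inhaled anaesthetic, for 6 h during log-phase growth, and the other received 0% sevoflurane for the same 6 h. Both then returned to an incubator with 5% CO2 for 24 h, though some labels name only the 6 h. Each group was 1 array, so no difference between the groups has a replicate check and no p-value is given. Whether a culture was pooled from several animals is not stated, and the day of the scan differed with the group and cannot be told apart from it.

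The mitochondrial ribosome makes the few proteins that the mitochondrial genome encodes, which are core subunits of the respiratory chain and of ATP synthase. Its RNAs come from the mitochondrial genome, but all of its proteins are encoded in the nucleus, made in the cytosol and imported. The small subunit (Mrps genes) reads the mRNA and the large subunit (Mrpl genes) forms the peptide bond. Some of the proteins have counterparts in bacterial ribosomes and others occur only in mitochondria.

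All values start from the scanner's processed signal, which is background-corrected and linear. The control array was brighter: its upper-quartile signal was 692, against 359 on the sevoflurane array. Each array was therefore set to its own 75th percentile, and a difference is the log2 level on the sevoflurane array minus that on the control array. A gene counts as measured where its probe was well above background on both arrays, which held for 10028 genes, and as different where it was at least 2-fold apart, 1 log2 unit. No spot was saturated. The labelled cell type was checked against marker genes. All 13 neural stem cell markers with a probe were measured, among them Sox2, at 1993 and 6835, and Nes, at 777 and 616 (sevoflurane and control signals here and below). Of the 13, 3 were at least 2-fold higher and 2 lower (summed signal 41996 against 79710). Summed signals are given before scaling, unlike the counts, so the brighter control array raises its side, and bright genes dominate them. Vim alone had 26446 and 26814 of the stem cell sums. Markers of other cells were present too, and some moved between the arrays. The 9 measured red blood cell markers were all at least 2-fold higher on the sevoflurane array (summed signal 51885 against 17955). Of 10 measured microglia and macrophage markers, 7 were at least 2-fold lower and 1, Laptm5, higher (1346 against 12343), with Cx3cr1 and Itgam not well above background on either array. Of 11 measured neuronal markers, 5 were at least 2-fold lower and none higher (20647 against 87942), with Slc17a7 not well above background on either. Of 8 pericyte and mesenchymal markers, 6 were at least 2-fold higher (41267 against 48885). Astrocyte markers (3 of 8 higher, 2 lower), oligodendrocyte lineage markers (2 of 8 higher, 1 lower) and endothelial markers (3 of 3 measured higher) also moved. The endothelial list held 7 genes. Pecam1 was not well above background on either array, Cdh5 was so on 1 array only, and Kdr and Vwf had no matched probe. Of all measured genes, 28.2% were at least 2-fold higher and 11.2% lower. After an intensity-dependent correction, astrocyte markers had 1 higher and 4 lower, oligodendrocyte lineage markers 1 and 1, and endothelial markers 1 higher. Neuronal markers then had 7 lower, and pericyte and mesenchymal markers 5 higher. Laptm5 fell to 0.23, while 7 microglia and macrophage markers stayed lower and the 9 red blood cell markers higher. The part of these shifts in the differences below was not tested, and in bulk RNA fewer cells of a type and less RNA per cell cannot be told apart.

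Mitochondrial ribosomal protein genes lay close together, and under this scaling most were slightly higher after sevoflurane; with median scaling most were lower. Of the 63, 55 were measured on both arrays. Their median difference was 0.48, or 1.39-fold, with quartiles of 0.15 and 0.76 and a range from -0.48 to 1.53. Of the 55, 5 were at least 2-fold higher (9.09%) and 0 were at least 2-fold lower, while 50 (90.9%) were within 2-fold. Of all measured genes 60.6% were within 2-fold, 28.2% were at least 2-fold higher and 11.2% at least 2-fold lower, with a median of 0.27. The SD across the 55 members was 0.44 log2 units, against 1.36 across all measured genes. Closeness was not particular to this family. The quartiles were 0.92 and 1.20 for the cytosolic ribosomal proteins, with an SD of 0.65. For the respiratory chain and ATP synthase they were 0.19 and 0.65, with an SD of 0.94. Both lists had quartiles closer together than the members, but a wider SD. Before scaling, the signal of 48 members was lower on the sevoflurane array and that of 7 was higher, so the sign of a small difference comes from the scaling.

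Measured from the all-gene median in place of 0, the family median was 0.21 higher. Of the 55, 35 lay above the all-gene median and 20 below it, and 52 (94.5%) lay within 1 log2 unit of it, against 61.0% of all measured genes. The scanner software gives each signal an error from its error model, which covers a single spot and not the cells. For a member's difference that error had a median of 0.20 log2 units and ranged from 0.20 to 0.43. By that error, 17 members were over 2 SDs above the all-gene median, 4 were over 2 SDs below it, and 34 were within 2 SDs. Of all measured genes, 35.3% were over 2 SDs above their median, 34.2% over 2 SDs below and 30.5% within; probes with several spots have smaller errors by this model.

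The difference of all genes varied with signal level. When the measured genes were divided into 5 equal groups by mean level, the all-gene median was 1.53 in the dimmest group, 0.54 in the next, and -0.02, -0.14 and -0.00 in the brighter 3. Members sat mainly in the brighter groups, with 5, 8, 10, 17 and 15 members from dim to bright. Their medians were 0.60, 0.62, 0.17, 0.41 and 0.55. In the brighter 3 groups, 41 of 42 members (97.6%) were within 2-fold, against 73.7% of the 6017 genes there. The member SD was 0.38 and the SD of all genes 1.18 there. In the dimmer 2 groups, 4 of the 13 members were past 2-fold. Of all genes, only 29.8% in the dimmest group and 52.3% in the next were within 2-fold.

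**Figure D1:**
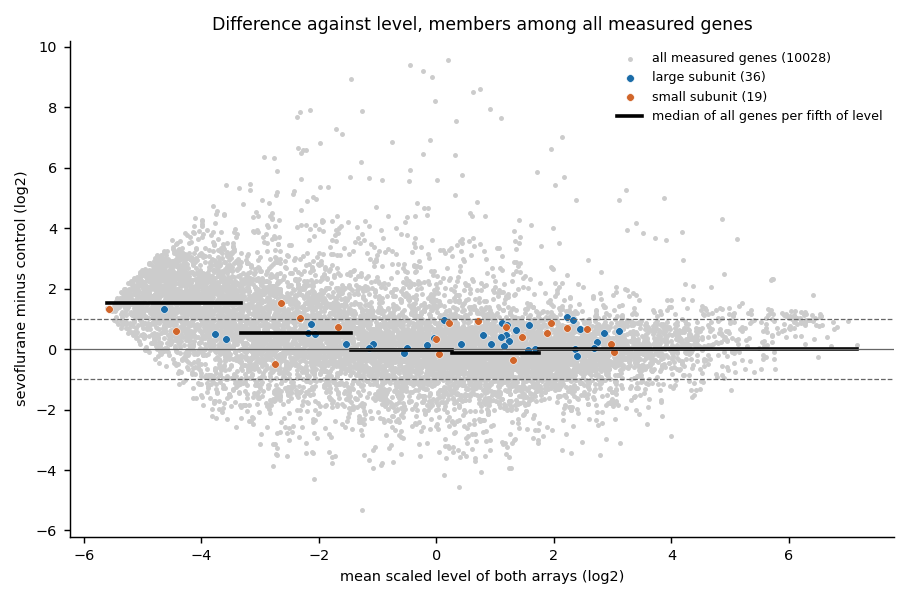
Difference between the arrays (log2, sevoflurane minus control) against mean level (log2) for all measured genes and for the 55 measured mitochondrial ribosomal protein genes. In the brighter 3 of 5 level groups the members have a median of 0.39 and an SD of 0.38, and all genes there an SD of 1.18.

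The highest member was Mrps27, a small-subunit protein with RNA-binding repeats of the PPR type. Its signals were 98.2 and 65.4 (sevoflurane, then control), a difference of 1.53 with an error-model SD of 0.21. Mrps27 was among the 7 members that were brighter on the sevoflurane array before scaling, and the only member that was positive under each of the 7 scalings tried. Some of these scalings differ only by a constant shift or give nearly the same values, so they are not independent checks. Quantile normalization lowered its difference to 0.76 and an intensity-dependent correction to 0.83.

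Mrps5, whose bacterial counterpart takes part in decoding accuracy, had signals of 11.9 and 9.11, a difference of 1.34 with an error-model SD of 0.43. Mrpl12, the stalk protein of the large subunit, which also binds the mitochondrial RNA polymerase, had signals of 22.9 and 17.8 and a difference of 1.31. Both probes were near the lower end of the measured range. Their sign turned with an intensity-dependent correction, to -0.50 for Mrps5 and -0.31 for Mrpl12.

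Mrpl23, a large-subunit protein with a bacterial counterpart at the rim of the exit tunnel, was the only bright member past 2-fold. Its signals were 2443 and 2233, a difference of 1.08, and the difference was 1.14 after quantile normalization and 1.20 after the intensity-dependent correction. Mrps15, a small-subunit protein with a bacterial counterpart, had signals of 102 and 96.7 and a difference of 1.02, at the edge of the 2-fold rule. Its difference was 0.34 after quantile normalization.

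Just inside 2-fold stood Mrpl54, a large-subunit protein found in mitochondria only, with signals of 2528 and 2475 and a difference of 0.98. Mrpl27, the counterpart of a bacterial protein near the peptidyl transferase centre, had 545 and 544, a difference of 0.95. Mrps12, the counterpart of the bacterial protein in which streptomycin resistance arises, had 812 and 821, a difference of 0.93. These 3 genes showed almost the same raw signal on both arrays, so their differences come nearly whole from the scaling. They were 1.09, 1.06 and 1.09 after the intensity-dependent correction, and -0.12, -0.15 and -0.17 with median scaling. Mrps18b had 1883 and 1991 (0.87), Mrps21 had 561 and 594 (0.87) and Mrpl21 had 1051 and 1113 (0.86). They followed the same pattern of near-equal raw signals, with 1.02, 0.99 and 1.04 after the intensity-dependent correction.

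The lowest member was Mrps31, a small-subunit protein found in mitochondria only. Its signals were 45.4 and 122, a difference of -0.48, and it was at least 2-fold lower under 4 of the 7 scalings, with -1.41 after quantile normalization and -1.23 after the intensity-dependent correction. Mrps2, the counterpart of a bacterial protein of the small-subunit body and head, had 783 and 1942, a difference of -0.36. Mrpl37 of the large subunit had 1743 and 3947, a difference of -0.23. Mrps14, a conserved protein of the small subunit, had 352 and 755 (-0.16). Mrps31, Mrps2, Mrpl37 and Mrps14 were the 4 members negative under all 7 scalings.

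The remaining genes of the lower end were close to no difference on this scale. Mrpl16, a conserved protein near the peptidyl transferase centre, had 234 and 496 (-0.14). Mrps26, a small-subunit protein found in mitochondria only, had 2828 and 5815 (-0.09). Mrpl14, a conserved large-subunit protein, had 1043 and 2069 (-0.04). These genes had about the ratio of the arrays' upper quartiles, 1.93, and so landed near 0. The same holds for Mrpl41 with 1846 and 3573 (-0.01), for Mrps30 with 1145 and 2214 (-0.01) and for Mrps18a with 166 and 309 (0.05). Mrps30 and Mrps18a carry small-subunit symbols but belong to the large subunit.

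Between these ends lay the middle of the family. Among small-subunit genes with bacterial counterparts, Mrps18c had 144 and 168 (0.73), Mrps16 had 2139 and 2547 (0.69) and Mrps9 had 1596 and 2108 (0.55). Among those found in mitochondria only, Mrps34 had 1050 and 1227 (0.72), Mrps33 had 2678 and 3248 (0.67) and Mrps25 had 1142 and 1655 (0.41). All 6 were dimmer on the sevoflurane array before scaling and within 2-fold after it.

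Among conserved large-subunit genes, Mrpl13 had 2461 and 3006 (0.66), Mrpl20 had 3119 and 4157 (0.53) and Mrpl2 had 964 and 1344 (0.47). Mrpl18 had 887 and 1285 (0.41), Mrpl1 had 399.5 and 594 (0.37) and Mrpl19 had 931 and 1491 (0.27). These 6 differences lay between 0.27 and 0.66. Mrpl35 had 508 and 876 (0.16), Mrpl10 had 337 and 585 (0.15) and Mrpl36 had 826 and 1496 (0.09). This group lay below the all-gene median of 0.27. Among large-subunit genes found in mitochondria only, Mrpl42 had 109.8 and 118 (0.84), Mrpl57 had 95.0 and 128 (0.52) and Mrpl40 had 102 and 139 (0.51). Mrpl50 had 181 and 308 (0.18), Mrpl49 had 130.2 and 225 (0.15) and Mrpl38 had 258 and 479.7 (0.05). The first 3 of these lay above the all-gene median and the last 3 below it.

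On the control array, the brightest member probes were those for Mrps26, Mrps24, Mrpl34, Mrpl53 and Mrpl4. Mrps24 had signals of 2986 and 5076 (0.18), Mrpl34 had 3793 and 4846 (0.59), Mrpl53 had 2354 and 4377 (0.05) and Mrpl4 had 2586 and 4258 (0.23). The dimmest measured probes were those for Mrps5, Mrpl12, Mrps35, Mrpl52 and Mrpl47. Mrps35 had 20.5 and 26.1 (0.60), Mrpl52 had 31.3 and 42.6 (0.50) and Mrpl47 had 33.6 and 51.5 (0.33). The bright probes were within 2-fold under the scaling used, while Mrps35 moved to -1.37 after quantile normalization. Brightness of a probe depends on its sequence, so these signals do not rank the genes.

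The other 8 members were not measured on both arrays. Mrpl45, a large-subunit protein related to an inner-membrane anchoring factor, was well above background on the sevoflurane array only, with 13.7 against 1.92. With the control signal set to the lowest one called well above background there, 7.22, Mrpl45 was at least 3.66-fold higher after scaling. That level is no sharp limit, since Mrpl55 at 8.37 was not called well above background on the same array. No member was well above background on the control array only, and over the whole array 4491 probes were so on the sevoflurane array only and 396 on the control array only. Mrpl3, Mrpl15, Mrpl30, Mrpl48, Mrpl55, Mrps17 and Mrps23 were not well above background on either array, with signals from 2.18 to 11.6 on the sevoflurane array and from 1.72 to 8.37 on the control array. Mrpl30 has 9 annotated pseudogenes, and 21 of the 63 members have at least 1, so a probe may also read transcripts of a copy.

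**Figure D2:**
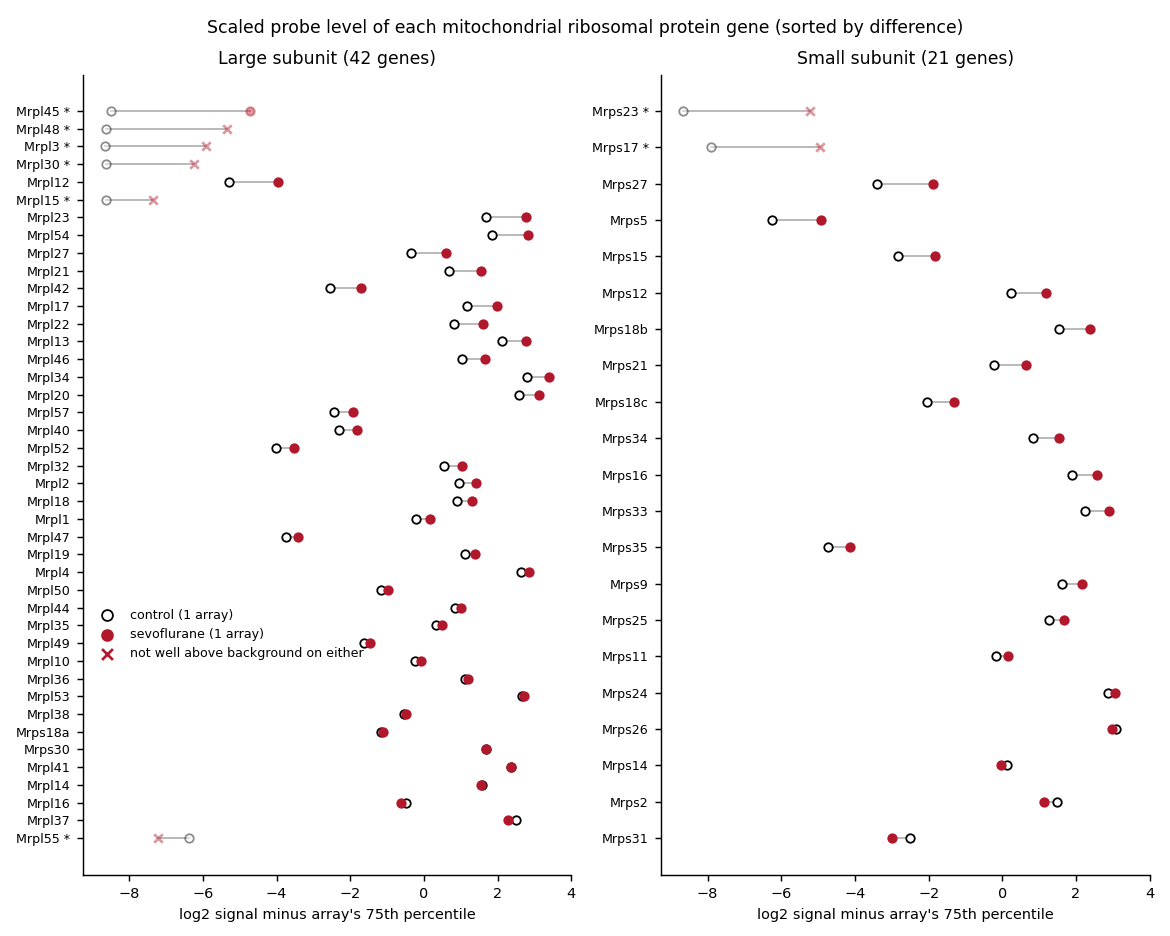
Level of each mitochondrial ribosomal protein gene on the control and the sevoflurane array (log2, relative to each array's 75th percentile), 1 row per gene, grouped by subunit. The 2 points of most genes lie within 1 log2 unit, with Mrps27 the farthest apart among measured members; asterisks mark the 8 genes not well above background on both arrays.

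By subunit, the 19 measured small-subunit genes had a median of 0.67 and the 36 large-subunit genes a median of 0.39. Of the former 3 (15.8%) were at least 2-fold higher (Mrps27, Mrps5 and Mrps15), and of the latter 2 (5.56%; Mrpl12 and Mrpl23). Of all measured genes, 28.2% were. By origin, the 32 measured proteins with bacterial counterparts had a median of 0.51 and 4 past 2-fold (12.5%), and the 23 found in mitochondria only had a median of 0.41 and 1 past 2-fold (4.35%). The median of the latter was 0.11 after the intensity-dependent correction and 0.05 after quantile normalization, against 0.46 and 0.36 for the former. The lowest class was the 15 large-subunit proteins found in mitochondria only, with a median of 0.17 and none past 2-fold. The other classes had medians of 0.47 (21 conserved, large), 0.69 (11 conserved, small) and 0.63 (8 mitochondria-specific, small). The 2 subunits overlapped widely, with ranges of -0.48 to 1.53 for the small and -0.23 to 1.31 for the large, and the difference between them was not tested. After the intensity-dependent correction the medians were 0.45 for the small and 0.29 for the large subunit, and after quantile normalization 0.34 and 0.21.

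The genes that build, feed and serve this ribosome were taken from lists drawn up with earlier results of these arrays known. Most of these genes were also within 2-fold. For comparison, 28.2% of all measured genes were at least 2-fold higher and 11.2% lower, here and for the lists that follow. Of 20 measured assembly factors, 2 (10%) were at least 2-fold higher and 0 lower, with a median of 0.07. Ybey, an RNA-processing enzyme, had signals of 34.5 and 12.7 (2.39), which shrank to 0.79 after the intensity-dependent correction. Tfb1m, which methylates the small-subunit rRNA, had 458 and 378 (1.22) and kept 1.29. Of 11 translation factors, 0 were past 2-fold in either direction, with a median of 0.11. Tufm, the elongation factor that brings aminoacyl-tRNA to the ribosome, had 3379 and 4037 (0.69).

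Of 12 measured mitochondrial aminoacyl-tRNA synthetases, which load amino acids onto mitochondrial tRNAs, 3 (25%) were at least 2-fold higher and 0 lower, with a median of 0.11. That share is close to the 28.2% of all measured genes. These were Sars2 for serine with 65.3 and 27.9 (2.17), Aars2 for alanine with 102 and 55.3 (1.83), and Ears2 for glutamate with 193 and 136 (1.45). All 3 were also brighter on the sevoflurane array before scaling and kept differences of 1.03, 1.09 and 1.14 after the intensity-dependent correction.

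Of 27 genes for mitochondrial RNA and DNA maintenance, 2 (7.41%) were at least 2-fold higher and 2 (7.41%) lower, with a median of 0.10. Both shares were below those of all measured genes, 28.2% and 11.2%. Polrmt, the mitochondrial RNA polymerase, had 54.1 and 23.0 (2.18), with 0.88 after the intensity-dependent correction. Supv3l1, an RNA helicase of mitochondrial RNA decay, had 2021 and 1803 (1.11). The lower ones were Mterf2, of the mitochondrial transcription termination factor family, with 75.2 and 325 (-1.16), and Gabpb1, a subunit of the ETS-type factor GABP, with 442 and 1775 (-1.06). Tfam, which packages mitochondrial DNA and starts its transcription, had 1725 and 3201 (0.05).

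Of 17 mitochondrial proteases and chaperones, including the stress regulator Atf5, 4 (23.5%) were at least 2-fold higher and 0 lower, with a median of 0.54, where 28.2% of all measured genes were higher. Grpel2, a nucleotide exchange factor for mitochondrial Hsp70, had 113 and 11.98 (4.18). Atf5, a transcription factor of the mitochondrial stress response, had 609 and 195 (2.59). Hspa9, mitochondrial Hsp70, had 1476 and 771 (1.88). Lonp1, a matrix protease, had 4745 and 4207 (1.12). After the intensity-dependent correction these were 2.91, 2.61, 2.06 and 1.08. With normexp they were 1.99, 2.27, 1.90 and 0.91, so Lonp1 was then within 2-fold. The 5 measured mitoribosomal proteins with other names had a median of 0.17 and none past 2-fold, from Aurkaip1 at 0.90 to Ptcd3 at -0.39.

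The cytosolic ribosomal proteins form the other ribosome of the cell. Of 73 measured, 42 (57.5%) were at least 2-fold higher, where 28.2% of all measured genes were, and 0 lower. The median was 1.04, and the mitochondrial family had 9.09% higher and a median of 0.48. That contrast depends on the scaling. After quantile normalization the cytosolic median was 0.28, near the mitochondrial median of 0.26. There 5 cytosolic genes (6.85%) were at least 2-fold higher, against 13.6% of all measured genes. After the intensity-dependent correction the cytosolic and mitochondrial medians were 0.33 and 0.34. The list of the respiratory chain and ATP synthase holds nuclear-encoded subunits, while the mitochondrial ribosome makes core ones. It had a median of 0.42 over 73 measured genes, with 5 (6.85%) at least 2-fold higher, 0 lower and 93.2% within 2-fold. Its highest members were Cox6a2, a muscle-type subunit, with 688 and 14.7 (6.50), and Cox4i2, an isoform best known from lung, with 92.3 and 10.7 (4.06). Both control signals were near the lower end of the measured range. With normexp the differences were 4.16 and 1.93, and after the intensity-dependent correction 5.93 and 2.66.

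**Figure D3:**
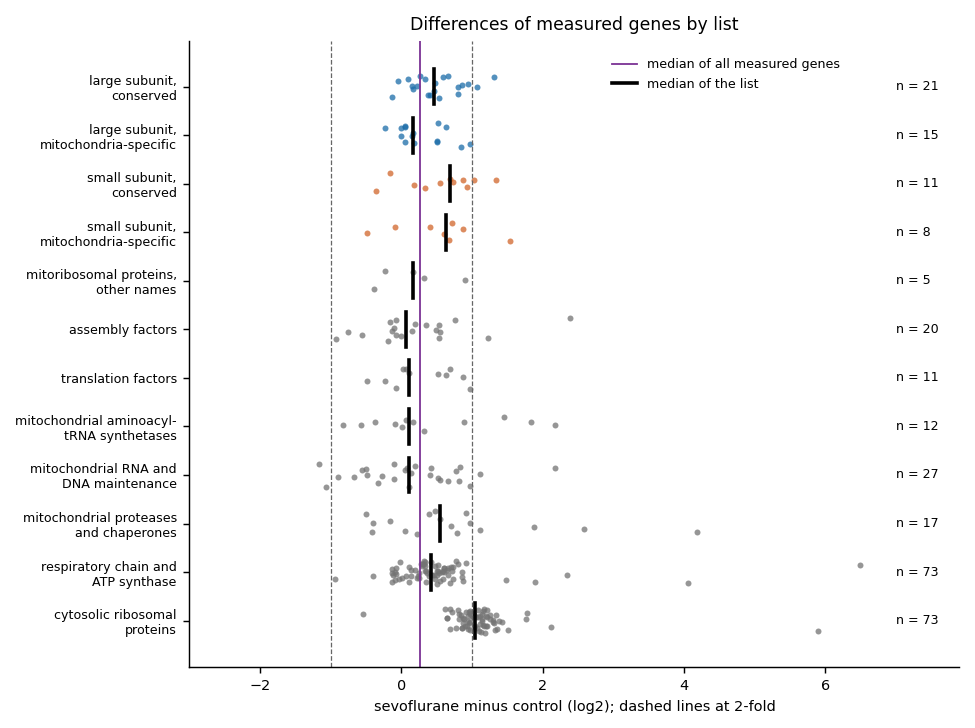
Difference (log2, sevoflurane minus control) of each measured gene in the mitochondrial ribosomal protein classes and the related lists, with the list medians. The mitochondrial classes have medians between 0.17 and 0.69, the cytosolic ribosomal proteins 1.04 and all measured genes 0.27.

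The order of the members relative to all genes was compared over 5 ways of obtaining the difference: the 75th percentile, a normexp background correction, quantile normalization, the intensity-dependent correction and the deposited value table. The deposited table and quantile normalization gave nearly the same differences (Pearson correlation 0.968), so the 5 are not independent of each other. Of the 55 members, 26 (47.3%) were above the all-gene median in each of the 5, 7 (12.7%) were below it in each, and 22 changed side. Of the 9971 genes that could be compared, 36.6% were above in each and 36.6% below in each. The 7 were Mrps18a, Mrps26, Mrpl16, Mrps14, Mrpl37, Mrps2 and Mrps31. In all 5, 43 members (78.2%) were within 1 log2 unit of the all-gene median, against 51.1% of those genes. No member was 1 log2 unit or more above it in all 5. Mrpl23 had 0.81, 0.60, 1.25, 1.21 and 1.24 in the order given, and Mrps27 had 1.27, 0.74, 0.86, 0.83 and 0.86. Mrps31, the lowest of those 7 in all but the normexp values, had -0.75, -0.35, -1.31, -1.22 and -1.31, and Mrps2 had -0.63, -0.65, -0.17, -0.19 and -0.17.

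The count past 2-fold depended on the scaling as well. Quantile normalization gave 2 members at least 2-fold higher, where 13.6% of all measured genes were, and 3 lower, where 19.6% were. The intensity-dependent correction gave 6 higher and 1 lower, against 15% and 15.5% of all measured genes. Under both, the family stayed below the share of all genes in each direction, and its median stayed above the all-gene median.

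**Figure D4:**
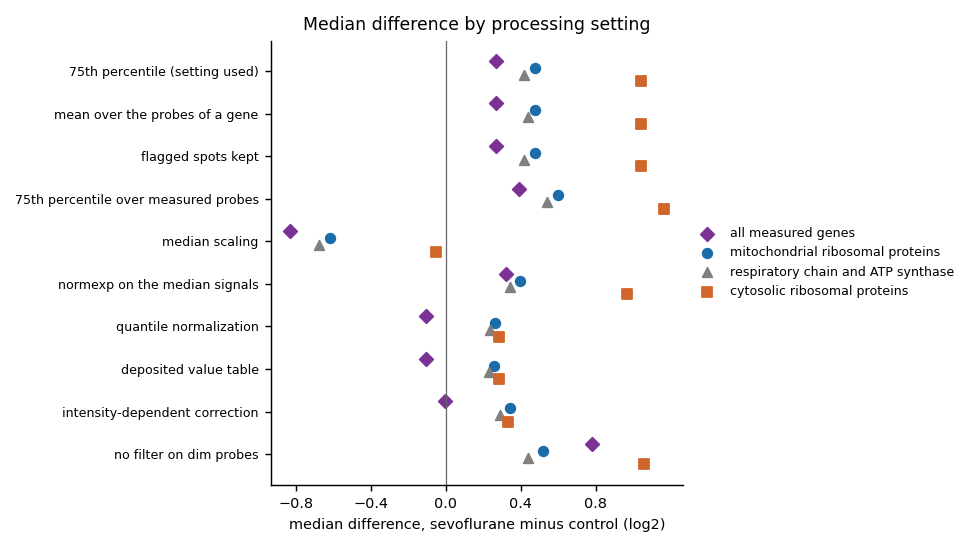
Median difference (log2, sevoflurane minus control) of the mitochondrial ribosomal protein genes, all measured genes, the respiratory chain and the cytosolic ribosomal proteins under each processing setting. The member median runs from -0.62 under median scaling to 0.60 under the 75th percentile over measured probes, and it lies above the all-gene median in each setting except the one without a filter on dim probes, with 0.52 against 0.78.

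The promoters of the members were read from RefSeq, on GRCr8, as the 300 bases from 250 before to 50 after the gene start, and 52 of the 63 members had one. They are shown because these genes are served by a few known factors: NRF1 and the ETS-type factor GABP bind many nuclear genes for mitochondria, and YY1 binds near the start of many of them. ATF4, SP1 and AP-1 were added, and 1 short word for each factor was looked for on both strands: GCGCATGCG for NRF1, CCGGAAG for ETS factors, AAGATGGCG for YY1, TTGCATCA for ATF4, GGGCGG for SP1 and TGACTCA for AP-1. A match is a description of the letters and not a bound site. A few windows follow, 5′ to 3′ on the strand of the gene, with matches in capitals. They are the highest member (Mrps27), a member with 2 NRF1 words (Mrpl17), a window that faces a second member (Mrpl46, whose start lies 234 bases from that of Mrps11) and the lowest member (Mrps31).

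Mrps27 lies at chr2:32473954-32474253 on the plus strand, Mrpl17 at chr1:169575650-169575949, Mrpl46 at chr1:142116981-142117280 and Mrps31 at chr16:76324016-76324315 on the minus strand.
Mrps27: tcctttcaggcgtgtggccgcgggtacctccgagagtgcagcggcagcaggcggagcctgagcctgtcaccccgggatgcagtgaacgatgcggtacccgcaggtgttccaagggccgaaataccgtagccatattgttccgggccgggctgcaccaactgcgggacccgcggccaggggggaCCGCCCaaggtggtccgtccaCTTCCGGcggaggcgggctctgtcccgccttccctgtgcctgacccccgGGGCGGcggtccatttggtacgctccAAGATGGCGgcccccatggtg
Mrpl17: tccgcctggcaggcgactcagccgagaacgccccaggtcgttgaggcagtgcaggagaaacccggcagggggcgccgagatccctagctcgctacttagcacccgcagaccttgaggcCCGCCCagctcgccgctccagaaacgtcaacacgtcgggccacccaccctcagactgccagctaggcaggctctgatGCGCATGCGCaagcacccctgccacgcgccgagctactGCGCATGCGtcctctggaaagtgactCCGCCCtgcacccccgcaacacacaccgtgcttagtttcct
Mrpl46: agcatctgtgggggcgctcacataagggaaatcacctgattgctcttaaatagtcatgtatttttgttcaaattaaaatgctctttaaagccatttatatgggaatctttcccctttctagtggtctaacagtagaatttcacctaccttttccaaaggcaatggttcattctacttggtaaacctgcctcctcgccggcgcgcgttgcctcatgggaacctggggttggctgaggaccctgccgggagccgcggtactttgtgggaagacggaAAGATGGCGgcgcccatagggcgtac
Mrps31: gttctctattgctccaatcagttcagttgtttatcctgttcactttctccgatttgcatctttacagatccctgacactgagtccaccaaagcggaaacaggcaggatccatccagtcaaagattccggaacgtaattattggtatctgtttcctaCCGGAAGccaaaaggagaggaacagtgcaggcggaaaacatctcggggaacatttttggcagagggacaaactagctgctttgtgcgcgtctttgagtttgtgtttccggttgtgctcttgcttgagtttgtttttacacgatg

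The window of Mrps27 held an ETS word 46 bases before the start, SP1 words on both sides of it and a YY1 word after it. The window of Mrpl17 held NRF1 words beginning 55 and 17 bases before the start; the first reads the same on both strands with a shift of 1 base. The windows of Mrpl46 and Mrps31 held 1 word each, for YY1 and ETS.

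The NRF1 word stood in the promoters of 5 members (9.62%), against 3.04% of 8225 promoters of measured genes and 1.66% of all 27457 promoters. The 5 were Mrpl17, Mrpl22, Mrpl32, Mrps18b and Mrpl44, and all of its matches lay before the start. The ETS word stood in 18 (34.6%), against 16.6% and 9.21%. The YY1 word stood in 8 (15.4%), against 3.31% and 1.93%, and 7 of its 8 matches began after the start or at it. The SP1 word was in 28 (53.8%), near the 58.9% of measured genes, and the AP-1 word in 2 (3.85%, against 3.48%). The ATF4 word was in none of the 52, against 0.657% of promoters of measured genes. Median GC content was 56% for the members and 60% for measured genes.

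The differences between the arrays were then read beside the words. The 5 members with the NRF1 word had a median difference of 0.79, and those without had 0.44. Mrpl17 had signals of 1414 and 1562 (0.80), Mrpl22 had 1087 and 1207 (0.79), Mrpl32 had 733 and 1013 (0.48) and Mrpl44 had 721 and 1237 (0.17), and Mrps18b was at 0.87. The 8 with the YY1 word had a median of 0.14, against 0.50 without, and they included both Mrps27 at 1.53 and Mrpl37 at -0.23. With the ETS word the median was 0.52 and without it 0.44. The groups with and without each of these words overlapped.

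Some members start near the start of a gene on the other strand that runs away from them. Of the 52 with a start, 15 (28.8%) had such a start within 1000 bases, against 862 of 8225 measured genes (10.5%). One pair joins a member to a member, Mrpl46 with 1140 and 1423 (0.63) and Mrps11 with 402 and 614 (0.34). In 10 pairs the partner is another gene and both sides were measured. Their partners had a median of -0.19, with 0 at least 2-fold higher and 1 lower, and the members a median of 0.47. Of all measured genes, 28.2% were at least 2-fold higher and 11.2% lower. The member's difference was above that of its partner in 9 of the 10 pairs, and also in 9 of the 10 after the intensity-dependent correction, where Mrpl47 and Ndufb5 were the exception. After quantile normalization it was 8 of 10, with both Mrpl47 and Mrpl49 below their partners.

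The widest of these was Mrps27 with Ptcd2, a mitochondrial RNA-binding protein whose start lies 91 bases away. Ptcd2 had signals of 78.1 and 214, a difference of -0.51, against 1.53 for Mrps27. Mrps18b (0.87) stood 588 bases from Ppp1r10, a regulator of protein phosphatase 1, with 1089 and 3715 (-0.83). Mrpl40 (0.51) stood 186 bases from Hira, a histone chaperone, with 674 and 2822 (-1.12). Only the pair of Mrpl49 (0.15) and Fau, a gene for a cytosolic ribosomal protein fused to a ubiquitin-like one, ran the other way, with 0.76 for Fau. The other partners were Eme1 (0.32), Psma2 (0.37), Klc4 (-0.39), Tcp1 (0.20), Ndufb5 (-0.13) and Pnpla7 (-0.25), facing Mrpl27, Mrpl32, Mrpl2, Mrpl18, Mrpl47 and Mrpl41 in that order. The pairs of Mrpl30 with Mitd1, Mrpl37 with Cyb5rl and Mrps18c with Helq had 1 side that was not measured.

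**Figure D5:**
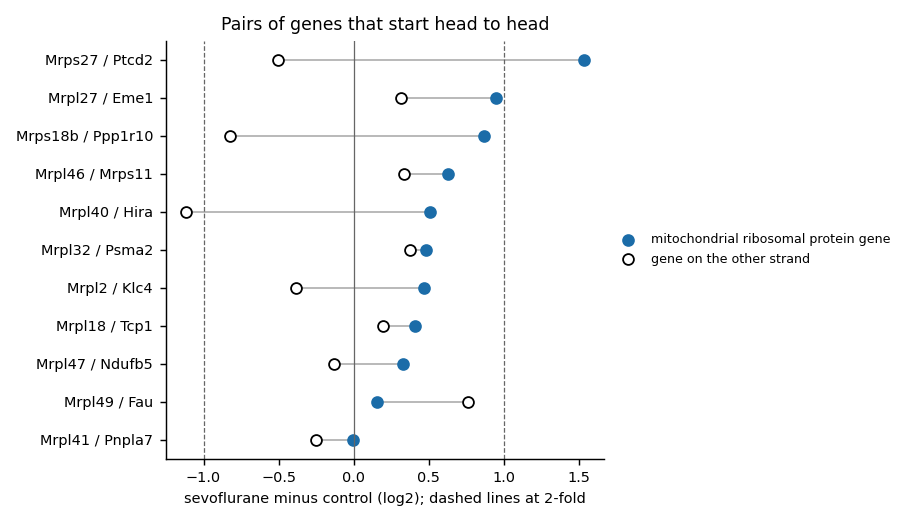
Difference (log2, sevoflurane minus control) of each mitochondrial ribosomal protein gene and of the gene that starts within 1000 bases on the other strand, 1 row per pair. In 9 of the 10 pairs with a partner outside the family the member is the higher one, with Fau above Mrpl49 the exception.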

How the data were processed

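Total RNA of 2 samples was labelled with Cy3 by random priming along the transcripts and hybridised to 1-colour arrays, per the labels. The authors deposited linear intensity values that Agilent Feature Extraction had written (version 11.0.1.1 per the submitters' processing notes). They also deposited a table of log2 values. The sources used here do not give its normalization, but its differences were close to those of quantile normalization (Pearson correlation 0.968). The processed intensity was divided by each array's 75th percentile over non-control probes and log2-transformed. Spots flagged as non-uniform or outliers were left out, the brightest measured probe stood for a gene, and the all-gene summary covers genes named through RefSeq accessions in a gene table of GRCr8.

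The deposited files have no mean signal, so normexp in limma 3.58.1 (R 4.3.3, offset 50) used the median signals in its place. Intensity-dependent correction used lowess with a span of 0.3 (statsmodels 0.14.6, Python 3.11.15). The calculation was tested on simulated data with a constant shift between the arrays. A shift that varies with signal level, as seen here, was not simulated. With 1 array per group no test was run. The precision is limited by that number. The brightest-probe rule did not act on the members, which have 1 probe each.

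Members and lists were chosen with earlier results of these data known. Named members were those past 2-fold, the 10 highest and 10 lowest differences and any measured on 1 array only. The 5 brightest and 5 dimmest on the control array were named too. The related lists gave up to 4 genes each, mostly those past 2-fold, and the cytosolic ribosomal proteins gave none. The other measured members are given with both signals. Genes named for a facing start, and Tfam, Tufm, Sox2, Nes, Vim and Laptm5, were named as well.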

Additional observations from a re-analysis of the deposited data

How the results depend on the processing

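No paired analysis was possible because each group has 1 array, and for the same reason no replicate could be left out. The family median of 0.48 moved to -0.62 with median scaling, 0.26 with quantile normalization and 0.26 in the deposited table, where the all-gene medians were -0.83, -0.10 and -0.10. Members at least 2-fold higher numbered 5 under the scaling used, 3 with normexp and 0 with median scaling. They numbered 8 with the 75th percentile over measured probes, 2 with quantile normalization and 6 with the intensity-dependent correction. They numbered 2 in the deposited table and 12 of 63 without the filter on dim probes. The genes added without the filter were Mrpl45, Mrps23, Mrpl48, Mrps17, Mrpl3, Mrpl30 and Mrpl15, all dim and not measured on both arrays. Without the filter the all-gene median lay above the member median, so that rise is no gain of the family over all genes. The genes changed too: Mrps27, Mrpl21 and Mrps12 with normexp, and Mrpl23 and Mrpl54 with quantile normalization. Of all measured genes, 23.1% were at least 2-fold higher with normexp, 10.5% with median scaling and 30.9% with the 75th percentile over measured probes. That share was 13.6% with quantile normalization, which the deposited table followed closely, and 15% with the intensity-dependent correction. The 0 at least 2-fold lower became 13 with median scaling, 3 with quantile normalization, 2 in the deposited table and 1 with the intensity-dependent correction. Of all measured genes, 43.5% were at least 2-fold lower with median scaling, 19.6% with quantile normalization and 15.5% with the intensity-dependent correction. The sign of a member past 2-fold turned for Mrps5 (-1.54 with quantile normalization, -0.50 after intensity-dependent correction, -0.89 in the authors' table) and Mrpl12 (-0.67, -0.31 and -0.67 in that order). The cause was not tested. Median scaling shifts every gene by the same amount, -1.096 log2 units, which alone puts Mrpl23 at -0.020 and Mrps15 at -0.074. Apart from median scaling, 17 of the 55 measured members had another sign in at least 1 alternative. Among members within 2-fold, the widest such turns were those of Mrps35 (-1.37), Mrpl47 (-0.97) and Mrpl52 (-0.91) with quantile normalization. Of 495 member values under the alternatives, 13 passed to within 2-fold with the same sign and 30 passed beyond 2-fold. Signals near background, as for Mrps5, Mrpl12 and Mrps35, limit what the arrays can show.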
